A study of Mus musculus with 12 samples.

Results

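The genes described are 29 genes of cholesterol synthesis, uptake and transport, chosen by name: every probe whose gene name in the scanner files is one of the 29 was taken, which gave 56 probes of the 41174 on the array. The array's probes name 19694 genes. RNA came from neurons cut out by laser from the medial (MEC) and the lateral (LEC) entorhinal cortex of Naglu-/- mice and of Naglu+/- littermates, all female, C57BL/6 and 2 months old. Naglu is the lysosomal enzyme alpha-N-acetylglucosaminidase, which takes part in the breakdown of heparan sulfate, and its loss models Sanfilippo syndrome type B. The controls are heterozygous, so both genotypes carry the mutation and no wild-type mice enter the comparison. Each region has 3 mutant and control pairs, each hybridised on 2 Agilent two-colour arrays with the dyes swapped, 12 arrays in all. Per the labels each sample was 500 neurons from sections of 12 µm, and the RNA was amplified linearly. The labels do not say that MEC and LEC pairs of one number come from the same mice, and p-values measure the spread between these pairs. The number of pairs limits the precision.

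Cells make cholesterol from acetyl-CoA. The mevalonate steps lead to farnesyl diphosphate, squalene is then formed and closed into a ring, and the sterol steps trim and rearrange that ring into cholesterol. SREBP2, the product of Srebf2, switches most of these genes on when sterol is short. Scap escorts SREBP to the Golgi for its activation, and Insig1 and Insig2 hold Scap back in the endoplasmic reticulum when sterol is plentiful. Lrp1 takes up lipoproteins, Npc1 and Npc2 carry cholesterol out of the lysosome, Abca1 and Abcg1 move it out of the cell and Soat1 esterifies it for storage. The brain makes its own cholesterol. In the adult much of it comes from glia, and neurons can take it up in lipoproteins.

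The labels and the deposited value table conflict. When every table column was set against every array over 9166 bright spots, the best match had an absolute correlation of 0.998 to 0.999, and 5 LEC scanner files matched the column of a different LEC sample. The replicate 2 arrays, 4 over MEC and LEC, carry a sign in the table that opposes their dye labels. The assignment and sign of the table were used. The direction of replicate 2 is not settled, so the mutant effects were computed again with those arrays turned and with those pairs left out. All MEC arrays were scanned on 1 day and all LEC arrays on another, so region and scan session cannot be told apart. Naglu itself was dim: its probes were above background in 12 and 0 of 24 readings, so it could not check the genotypes.

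Many of the cholesterol genes lay at the edge of what the arrays could see. Each probe was read on 12 arrays in 2 dyes, 24 readings. Probes were kept if a region and genotype gave 4 or more of its 6 readings well above background. This held for 26 of the 56 member probes, 46.4%, and for 31.6% of all probes. The 26 probes cover 20 genes. Kept genes were 4 of the 7 mevalonate genes (Acat2, Hmgcs1, Pmvk and Idi1), 9 of the 11 squalene and sterol genes, 4 of the 5 genes of SREBP control, 1 of the 3 genes of uptake and lysosomal export (Lrp1) and 2 of the 3 of efflux and storage (Abcg1 and Soat1). The 9 genes with no kept probe were Mvk and Mvd, which act on mevalonate, Fdps, which makes farnesyl diphosphate, Lss, which closes the ring, Cyp51, which removes a methyl group from it, Insig1, Npc1, Npc2 and Abca1. The 2 Insig1 probes were above background in 10 and 7 of 12 Cy3 readings, and the Npc1 probes in 9 and 1. The Abca1 probe reached 2 of 12 Cy3 readings. None of these 5 probes was above background in a Cy5 reading, so no ratio of mutant over control and no regional difference is given for them.

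**Figure D1:**
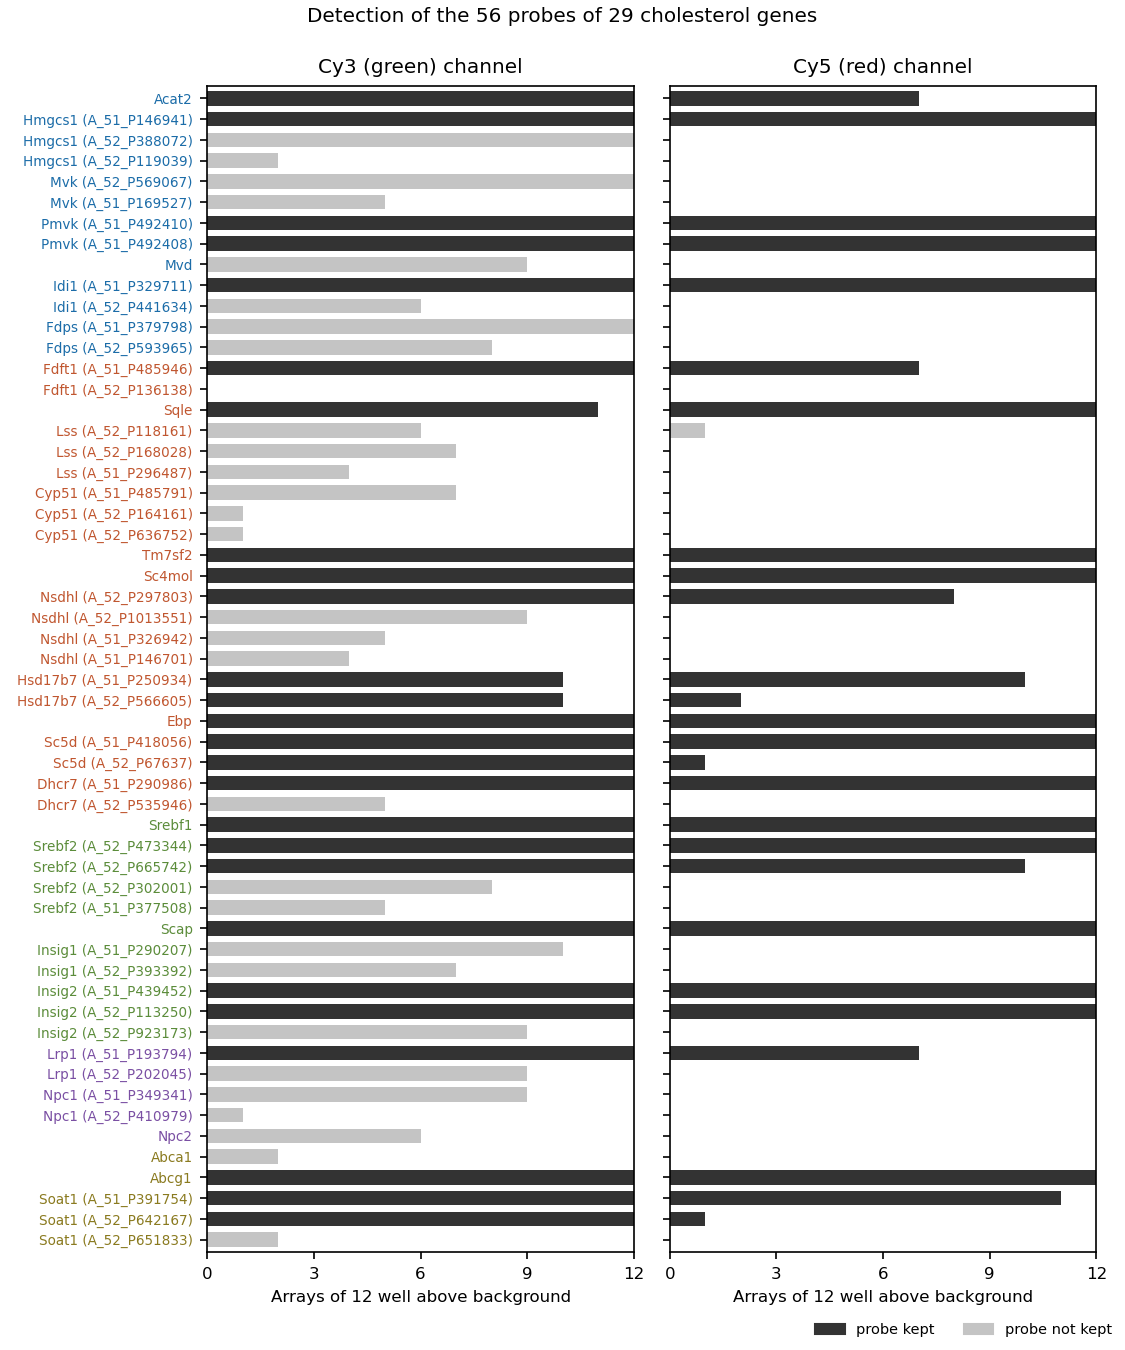
The number of arrays, of 12, in which each of the 56 probes was well above background, for Cy3 on the left and Cy5 on the right; dark bars are the 26 kept probes, and label colours mark the 5 gene groups. Cy5 was the limiting dye: 3 probes that were not kept, 1 each of Hmgcs1, Mvk and Fdps, were above background on all 12 arrays in Cy3 and on 0 in Cy5.

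The 2 dyes differed in reach. In Cy3, 50.7% to 67.9% of all probes on a MEC array and 48.2% to 62.1% on a LEC array were well above background, against 14.8% to 29.4% and 24.3% to 30.4% in Cy5. Of the member probes, 15 were above background in all 24 readings, among them probes of Hmgcs1, Idi1, Sc4mol, Ebp, Dhcr7, Srebf1, Srebf2, Scap, Insig2 and Abcg1. No member reading was saturated. Several probes in the files do not lie where the gene is placed by RefSeq: in the files' mm8 coordinates the kept Idi1 probe is on chr2:53516550-53516609, minus strand, and the Hmgcs1 probes are on the unplaced chr13_random. The Fdft1 probe kept (chr14:62101042-62105282, minus strand) spans an intron. Acat2, the cytosolic thiolase that starts the pathway, has close relatives among the thiolases, and its probe could share signal with them.

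The comparison of Naglu-/- with Naglu+/- neurons asks whether loss of the enzyme changes these genes. No change was detectable in any of them. In limma, with Benjamini-Hochberg adjustment over 12993 kept probes, 0 of 26 member probes passed in MEC, in LEC, in the mean of both regions or in the difference between them, and the same tests called 0% of all probes. At an unadjusted p under 0.05 the member count was again 0 of 26 in each test, while all probes gave 137 in MEC (1.05%), 200 in LEC (1.54%), 275 in the mean (2.12%) and 71 in the difference (0.546%). The members' log2 ratios of mutant over control ran between −0.12 and 0.25 in MEC, with 13 of 26 above 0 against 47.1% of all probes, and between −0.18 and 0.17 in LEC, with 16 above 0 against 52.8%. In the mean of the regions they ran between −0.12 and 0.15, with 16 above 0 against 50.8% of all probes and a median of 0.0098 against 0.0009. All 3 pairs of a region had one sign for few members: in MEC 3 probes were above 0 in every pair (6.97% of all probes were) and 2 below (7.29%), and in LEC 3 were above (10.4%) and 2 below (7.08%). Pair and single-channel values carry the direction of the value table, and turning replicate 2 changes the sign of the second pair's ratios in both regions. With it turned, 18 of 26 were above 0 in MEC against 62.7% of all probes, 14 in LEC against 51.4% and 13 in the mean against 61.7%. In every pair of MEC 5 were then above 0 (24.3% of all probes) and 3 below (12.2%), and in every pair of LEC 3 were above (15.2%) and 6 below (14.9%). The 95% intervals give the bounds in the direction of the table: none of the 26 reached beyond 0.66 in MEC, 0.50 in LEC or 0.42 in the mean, changes of 1.58, 1.41 and 1.34-fold. These ratios include an offset of 50 added to every signal, which shrinks the ratio of dim probes. On the scanner software's processed signals, which carry no such offset, the members ran between −0.27 and 0.34 in MEC and between −0.62 and 0.29 in LEC, none with an unadjusted p under 0.05, and the widest intervals reached 1.09 in MEC, 1.30 in LEC and 0.92 in the mean, changes of 2.12, 2.46 and 1.89-fold.

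**Figure D2:**
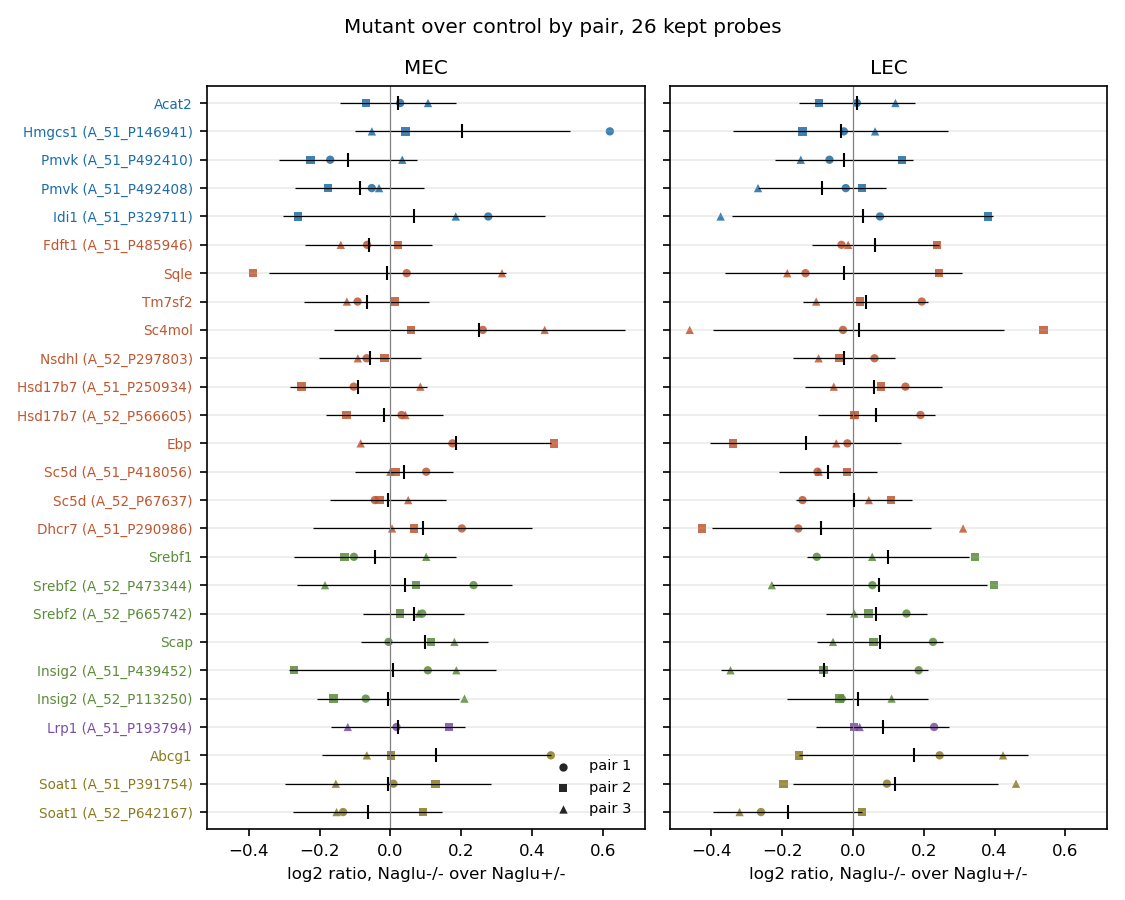
Log2 ratios of Naglu-/- over Naglu+/- for the 26 kept probes (rows, coloured by gene group) in MEC and LEC; symbols are the 3 pairs of each region, black ticks the fitted mean and black lines its 95% interval. The intervals of all 26 probes cross 0 in both regions, and the pairs of most probes lie on both sides of 0.

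Among the mevalonate genes, Hmgcs1, the synthase that makes HMG-CoA, had log2 ratios of 0.62, 0.04 and −0.05 in the 3 MEC pairs and of −0.03, −0.14 and 0.06 in the LEC pairs. Its MEC mean of 0.20 (SE 0.13, n = 3) was set by pair 1: without that pair it was −0.005. Pmvk, which phosphorylates phosphomevalonate, has 2 kept probes that lie side by side. The first (A_51_P492410) gave −0.17, −0.23 and 0.03 in MEC pairs and −0.07, 0.14 and −0.15 in LEC pairs. The second (A_51_P492408) gave −0.05, −0.18 and −0.03 in MEC and −0.02, 0.03 and −0.27 in LEC, a mean over the regions of −0.09 (SE 0.05). Idi1, which isomerises the isoprene unit, had 0.28, −0.26 and 0.18 in MEC and 0.08, 0.38 and −0.37 in LEC. Its pairs disagreed in sign within each region.

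Among the squalene and sterol genes the LEC pairs spread most in Sc4mol, the methyl sterol oxidase now named Msmo1. The 3 MEC pairs were all above 0, at 0.26, 0.06 and 0.44, and the LEC pairs were −0.03, 0.54 and −0.46. The MEC mean was 0.25 with an SE of 0.17. Sqle, the squalene epoxidase, had 0.05, −0.39 and 0.32 in MEC pairs and −0.13, 0.24 and −0.19 in LEC pairs, and its mean over the regions was −0.02 (SE 0.10). Ebp, the sterol isomerase, had 0.17, 0.46 and −0.08 in MEC and −0.02, −0.34 and −0.05 in LEC. Of all members it had the smallest limma p for a difference between the regions' mutant effects, 0.32 (SE 0.16, unadjusted p = 0.0893, adjusted p = 1). Dhcr7, the reductase of the last step, had 0.20, 0.07 and 0.0045 in MEC, all above 0, and −0.15, −0.43 and 0.31 in LEC. Its mean over the regions was 0.00052 (SE 0.09). The desaturase gene Sc5d (A_51_P418056) had 3 LEC ratios below 0, −0.10, −0.02 and −0.10, and MEC ratios of 0.10, 0.01 and −0.00031. Hsd17b7, a ketosteroid reductase, had −0.10, −0.25 and 0.08 in MEC and 0.15, 0.08 and −0.05 in LEC at its brighter probe (A_51_P250934). Over this group, 4 of 11 probes were above 0 in MEC and 6 of 11 in LEC.

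In the group of SREBP control, 5 of 6 probes had a mean over the regions above 0, with a group median of 0.04, and none passed. Scap had −0.0053, 0.11 and 0.18 in MEC and 0.23, 0.06 and −0.06 in LEC, a mean of 0.09 (SE 0.05, unadjusted p = 0.15). Srebf2 was read by 2 kept probes. At the probe toward the 5′ end of the gene (A_52_P665742, chr15:82000812-82000871, plus strand, mm8) all 6 pairs were above 0, with 0.09, 0.03 and 0.08 in MEC and 0.15, 0.04 and 0.0036 in LEC. This was the 1 member probe with one sign in all 6 pairs, against 1.12% of all probes above 0 and 0.685% below 0 in every pair. With replicate 2 turned it no longer had one sign, and Acat2 (above 0), Fdft1 and the dimmer Soat1 probe (both below) had one, against 3.6% and 3.87% of all probes. At the other probe (A_52_P473344, chr15:82032520-82032579) MEC pairs gave 0.23, 0.07 and −0.18 and LEC pairs 0.05, 0.40 and −0.23, on both sides of 0. Srebf1, whose product acts mainly on fatty acid genes, had −0.10, −0.13 and 0.10 in MEC pairs and −0.10, 0.34 and 0.05 in LEC pairs. The Insig2 probes averaged −0.04 (A_51_P439452) and 0.003 (A_52_P113250) over the regions.

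Lrp1, the lipoprotein receptor, had 0.02, 0.16 and −0.12 in MEC and 0.23, 0.0025 and 0.02 in LEC, a mean of 0.05 (SE 0.06). Abcg1, the exporter, had 0.45, 0.0023 and −0.07 in MEC and 0.24, −0.15 and 0.42 in LEC, and its mean over the regions, 0.15 (SE 0.10, unadjusted p = 0.163), was the highest of the members. The kept probes of Soat1 disagreed. The dimmer one (A_52_P642167), above background in 12 Cy3 and 1 Cy5 readings, gave −0.13, 0.09 and −0.15 in the MEC pairs and −0.26, 0.03 and −0.32 in the LEC pairs, a mean of −0.12 (SE 0.06). Its unadjusted limma p of 0.0886 was the smallest of the members in that test, and its adjusted p was 1. This probe was kept only through LEC of Naglu+/- mice, with 4 of 6 readings against 3 in each other group. The filter thus favoured a ratio below 0 in LEC. The brighter one (A_51_P391754) had 0.0084, 0.13 and −0.15 in MEC and 0.10, −0.20 and 0.46 in LEC, a mean of 0.06 (SE 0.09). One spot of the dimmer probe was marked as uneven by the scanner software.

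With the other direction of replicate 2 the members still gave no call, but the small p-values changed. With replicate 2 turned as labelled, 0 of 26 member probes passed in any of the 4 tests, with 0 calls over all probes too. At an unadjusted p under 0.05 there were then 2 member probes in MEC against 11.2% of all probes, 6 in LEC against 9.54%, 2 in the mean against 11.7% and 4 in the difference against 8.85%. The MEC probes were Sqle, with 0.25 (SE 0.07), and Idi1, with 0.24 (SE 0.09). In LEC they were those of Sqle (−0.19, SE 0.07), Idi1 (−0.23, SE 0.09), Sc4mol (−0.34, SE 0.12), Abcg1 (0.27, SE 0.11) and Soat1, whose probes went opposite ways (0.25 and −0.20). In this direction Sqle and Idi1 were above 0 in MEC and below 0 in LEC, with limma adjusted p of 0.429 and 0.431 in MEC and of 0.504 and 0.51 in LEC, and a difference between the regions of 0.44 for Sqle and 0.47 for Idi1 (adjusted p = 0.559). With both files and dyes as labelled 0 of 26 passed as well. Without replicate 2 of both regions, 0 of 26 passed. The unadjusted count was 1 in MEC (Sc4mol, 0.35) against 3.42% of all probes, 1 in LEC (Soat1, −0.29) against 3.8%, 2 in the mean (Abcg1, 0.26, and Soat1, −0.22) against 6.14% and 1 in the difference (Sc4mol, 0.59) against 1.67%. These Soat1 values are those of the dimmer probe, kept only through LEC of Naglu+/- mice.

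Marker ratios of other cells and of neurons varied between pairs, and they are set beside these ratios. The mean log2 ratio of 8 kept astrocyte markers of 10 was 0.08, −0.14 and 0.17 in the MEC pairs and −0.04, 0.57 and −0.28 in the LEC pairs. In LEC the pairs of Sc4mol, Idi1, Sqle and Srebf2 (A_52_P473344) went the same way as these, high in pair 2 and low in pair 3. Those of Dhcr7, Abcg1 and the brighter Soat1 probe were low in pair 2 and high in pair 3. Further members went in either direction. Neuronal markers were also highest in LEC pair 2. The 6 inhibitory markers, all kept, had means of −0.20, 0.49 and −0.0094 in the LEC pairs and 0.14, −0.19 and −0.04 in MEC. The 4 kept excitatory markers of 7 had −0.15, 0.17 and 0.02 in LEC and −0.07, −0.13 and −0.04 in MEC. The 9 kept oligodendrocyte markers of 12 gave 0.16, −0.13 and 0.20 in MEC and, in LEC, −0.20, 0.20 and −0.05. The mean of the 10 kept microglial markers of 12 was above 0 in all 6 pairs, with 0.36, 0.38 and 0.32 in MEC and 0.24, 0.60 and 0.30 in LEC. With replicate 2 turned it is below 0 in the second pair of both regions. Over the 3 pairs it was 0.35 in MEC and 0.38 in LEC, while the median of these markers was 0.12 and 0.18. Lyz2 (1.78) and Ctss (0.81) had the highest means over both regions. The median of the 26 member probes was 0.02, 0.0077 and 0.02 in MEC and, in LEC, −0.0023, 0.02 and −0.05. The astrocyte markers Gfap and Aqp4 were not kept, and neither were the neuronal markers Slc17a7 and Tbr1, while Snap25, Camk2a, Neurod6 and Nrgn were. Summed intensities of the astrocyte list ran between 4362 and 4661 in MEC mutant channels, 3669 and 5144 in MEC control channels, 2385 and 5966 in LEC mutant channels and 3124 and 4722 in LEC control channels. The part of other cells in the ratios was not tested, and fewer cells of a type cannot be told apart from less RNA per cell.

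The second comparison sets MEC against LEC over both genotypes, on the mean log2 intensity of the 2 dyes after quantile normalisation between arrays. It does not need the direction of the dyes. Insig2 and Ebp were higher in MEC, and Hmgcs1, Srebf2 at 1 of its probes and Dhcr7 were lower. In limma, 7 of 26 member probes passed (26.9%), 4 higher and 3 lower in MEC, against 24.4% of all probes (11.1% higher and 13.2% lower). The members' share is near that background. For 9 member probes the 3 MEC and the 3 LEC pairs did not overlap (5 higher and 4 lower in MEC), against 42.8% of all probes (19.2% higher and 23.7% lower). The scan session moves with the region throughout, and its part cannot be told apart from that of the region.

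Insig2 gave the largest regional difference under quantile normalisation. Its probe A_51_P439452 (NM_133748, chr1:123132054-123132113, minus strand, mm8) had log2 intensities of 8.53, 8.30 and 8.37 in the MEC pairs, against 7.86, 7.79 and 7.72 in the LEC pairs. All MEC pairs lay above all LEC pairs, and the difference was 0.61 (SE 0.07, 1.53-fold, limma adjusted p = 0.00127). The second probe, A_52_P113250 (NM_178082, chr1:123133102-123133161, minus strand), had 6.68, 6.80 and 6.74 in MEC and 6.37, 6.36 and 6.32 in LEC. It differed by 0.39 (SE 0.05, 1.31-fold, adjusted p = 0.00177), again with no overlap. On the processed signals, which carry no offset, this dim probe differed by 0.87 (adjusted p = 0.00221). Another probe under this name lies on the opposite strand and was not kept. Insig1, the relative that SREBP itself induces, was not kept.

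Ebp had 9.23, 9.18 and 9.15 in MEC and 8.87, 8.68 and 8.73 in LEC, a difference of 0.42 (SE 0.06, 1.34-fold, adjusted p = 0.00269), with no overlap. This call rests on the normalisation: with the arrays scaled to a common median the difference was 0.03 (adjusted p = 0.814). Hmgcs1 was lower in MEC, with 9.56, 9.46 and 9.34 in MEC and 9.80, 9.90 and 9.80 in LEC. It fell by 0.38 on the log2 scale (SE 0.06, adjusted p = 0.00499), and the regions did not overlap. Srebf2 at A_52_P473344 had 8.93, 9.13 and 8.96 in MEC and 9.22, 9.40 and 9.36 in LEC, a difference of −0.32 (SE 0.07, adjusted p = 0.0146). Its other kept probe did not follow, with 6.27, 6.36 and 6.24 in MEC and 6.24, 6.31 and 6.26 in LEC, a difference of 0.02.

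Dhcr7 had 7.23, 7.28 and 7.15 in MEC and 7.31, 7.61 and 7.63 in LEC, a difference of −0.30 (SE 0.09, adjusted p = 0.0389). The Pmvk probe A_51_P492408 had 7.07, 7.01 and 6.99 in MEC and 6.72, 6.93 and 6.83 in LEC, a difference of 0.19 (adjusted p = 0.0482), and the probe beside it differed by 0.05 (adjusted p = 0.582). Scap (−0.14, adjusted p = 0.0741) and Sc5d at A_52_P67637 (0.17, adjusted p = 0.0599) had regions that did not overlap without passing. That Sc5d probe was kept only through MEC of Naglu+/- mice (4 of 6 readings), so the filter favoured a higher level in MEC. Lrp1 (0.0073), Acat2 (−0.0093), Idi1 (−0.02), Abcg1 (−0.03) and both Soat1 probes (−0.06 and −0.03) had intervals that crossed 0, the widest of these reaching −0.21.

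**Figure D3:**
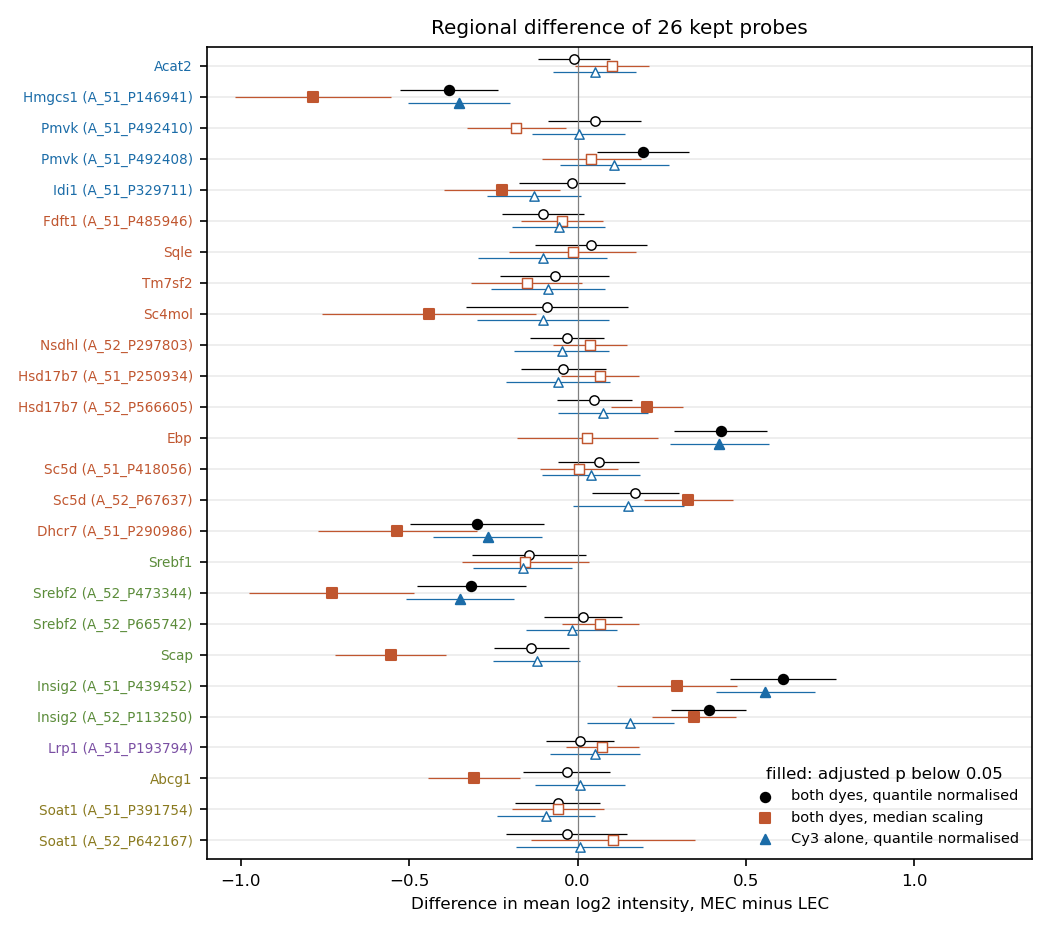
Difference in mean log2 intensity, MEC minus LEC, of the 26 kept probes with 95% intervals: black circles for both dyes with quantile normalisation, orange squares for both dyes scaled to a common median, blue triangles for Cy3 alone. Filled symbols have an adjusted p below 0.05. The first Insig2 probe, Hmgcs1, Srebf2 (A_52_P473344) and Dhcr7 are filled under all 3, whereas Ebp drops to 0.03 under median scaling.

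How the arrays were scaled mattered for bright and dim members. With median scaling 11 of 26 member probes passed, 4 higher and 7 lower, against 38.6% of all probes. Hmgcs1 then differed by −0.78, Srebf2 by −0.73, Scap by −0.55, Dhcr7 by −0.54, Sc4mol by −0.44, Abcg1 by −0.31 and Idi1 by −0.22. The higher ones were both Insig2 probes (0.29 and 0.35) and a dim probe each of Sc5d (A_52_P67637, 0.33) and Hsd17b7 (A_52_P566605, 0.21), the last 2 without a call under quantile normalisation. Both dim probes were kept only through MEC of Naglu+/- mice, with 4 of 6 readings. The filter thus favoured a higher level in MEC, and no regional difference is drawn from them. The 1459 probes with a mean log2 intensity of at least 8, of which 6 are member probes, had a median difference of −0.39 under median scaling and of −0.01 under quantile normalisation, while the 11534 dimmer probes had 0.03 and −0.02. Relative to that median of bright probes Hmgcs1, Srebf2 and Scap stood lower and Ebp higher. Idi1 and Abcg1, which did not pass under quantile normalisation, had −0.02 and −0.03 there. Over 16 settings, the chosen one included, the brighter Insig2 probe passed in 16, with differences between 0.29 and 0.75. Hmgcs1 passed in 15 and Ebp in 15. The second Insig2 probe passed in 14 of 15, missing the threshold in Cy3 alone (0.16, adjusted p = 0.0933). Srebf2 passed in 12 of 16, Dhcr7 in 9 of 16 and Pmvk in 4 of 15. Without replicate 2 of both regions only the 2 Insig2 probes and Ebp passed among the members, and 6.86% of all probes did. Srebf2 missed the threshold without MEC replicate 1 (−0.28) and without LEC replicate 2 (−0.28). Dhcr7 missed it without any 1 of the pairs except LEC replicate 1 (−0.33 to −0.24), and Pmvk without any 1 except LEC replicate 2 (0.14 to 0.21).

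Within 1 genotype the regional difference could be set side by side from the single channels, with the direction of the dyes as in the value table. In Naglu-/- channels 2 member probes passed, Ebp with 0.58 (adjusted p = 0.0477) and Insig2 at A_52_P113250 with 0.38 (adjusted p = 0.0394), against 3.48% of all probes. The other Insig2 probe had 0.65 and did not pass (adjusted p = 0.0537). In Naglu+/- channels 3 passed, against 4.7% of all probes: both Insig2 probes, with 0.57 (adjusted p = 0.0115) and 0.40 (adjusted p = 0.0383), and Hmgcs1 with −0.50 (adjusted p = 0.0211). Ebp was 9.32, 9.41 and 9.11 in MEC and 8.87, 8.51 and 8.71 in LEC of Naglu-/- mice, and 9.15, 8.95 and 9.19 in MEC and 8.88, 8.85 and 8.76 in LEC of Naglu+/- mice. Its regional difference was 0.58 in Naglu-/- and 0.27 in Naglu+/- channels. Hmgcs1 differed by −0.26 in Naglu-/- and by −0.50 in Naglu+/- channels. The test of these gaps is that of the mutant effect between the regions, in which neither gene passed (adjusted p = 1). With replicate 2 turned the order of the Ebp differences reverses, at 0.32 in Naglu-/- (adjusted p = 0.0764) and 0.53 in Naglu+/- channels (adjusted p = 0.0358), and Hmgcs1 differs by −0.32 and −0.44. In that direction 2 member probes passed in Naglu-/- channels, both of Insig2 (0.72 and 0.42), against 14.7% of all probes. In Naglu+/- channels 4 passed, against 7.16%: both Insig2 probes (0.50 and 0.36), Ebp and Hmgcs1.

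**Figure D4:**
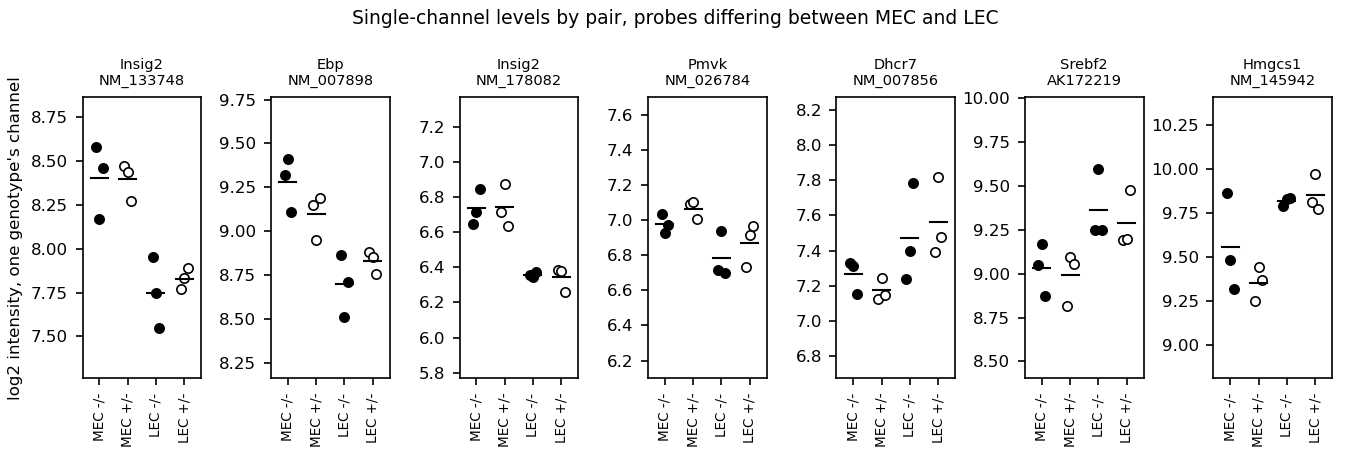
Log2 intensity of the Naglu-/- channel (filled) and the Naglu+/- channel (open) in each pair of MEC and LEC, for the 7 member probes that passed between the regions; lines are means, and each panel spans the same range. The Insig2 and Ebp panels stand higher in MEC in both genotypes, and the means of the Dhcr7, Srebf2 and Hmgcs1 panels lower. In the Naglu-/- channels the pairs of the regions overlap for Hmgcs1, Dhcr7 and Pmvk.

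The upstream sequences of the 4 genes with the smallest adjusted p between the regions are shown because SREBP, with its partners NF-Y and Sp1, acts through such sequence. They are the 250 bases before the transcript start in RefSeq (GRCm38.p6), on the strand of the gene. Capitals mark TCACNCCAC, a form of the sterol element that SREBP binds, CCAAT, the letters of the NF-Y box, and GGGCGG, those of a GC box, on either strand.
Insig2 (chr1:121332590-121332839, minus strand; the most upstream of 3 starts): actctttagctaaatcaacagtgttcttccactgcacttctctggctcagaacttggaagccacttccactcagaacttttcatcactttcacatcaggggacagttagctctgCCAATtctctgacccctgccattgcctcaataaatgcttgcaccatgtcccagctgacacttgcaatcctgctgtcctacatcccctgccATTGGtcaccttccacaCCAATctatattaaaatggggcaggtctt
Ebp (chrX:8193513-8193762, minus strand): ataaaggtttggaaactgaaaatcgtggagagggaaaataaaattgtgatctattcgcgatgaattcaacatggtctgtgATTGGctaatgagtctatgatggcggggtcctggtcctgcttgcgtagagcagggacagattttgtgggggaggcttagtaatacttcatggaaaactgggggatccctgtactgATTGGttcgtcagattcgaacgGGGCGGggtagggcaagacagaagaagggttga
Hmgcs1 (chr13:119690101-119690350, plus strand): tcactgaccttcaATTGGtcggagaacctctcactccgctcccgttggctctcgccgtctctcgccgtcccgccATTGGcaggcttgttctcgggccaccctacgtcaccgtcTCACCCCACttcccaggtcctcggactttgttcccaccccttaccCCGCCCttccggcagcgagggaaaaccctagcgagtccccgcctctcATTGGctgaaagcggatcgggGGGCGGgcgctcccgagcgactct
Srebf2 (chr15:82147019-82147268, plus strand): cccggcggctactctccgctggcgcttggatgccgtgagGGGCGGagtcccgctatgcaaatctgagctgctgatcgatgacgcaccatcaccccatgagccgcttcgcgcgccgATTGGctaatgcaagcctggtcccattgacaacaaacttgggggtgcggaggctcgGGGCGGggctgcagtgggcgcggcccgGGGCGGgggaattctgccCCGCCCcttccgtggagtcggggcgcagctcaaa

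Hmgcs1 holds the sterol element letters 137 bases before its start, with CCAAT 237, 176 and 45 bases and GGGCGG 92 and 24 bases before it. Insig2 holds CCAAT 136, 46 and 29 bases before the start shown and no GGGCGG. Its other starts each hold 1 GGGCGG and no CCAAT, and which start these neurons use was not tested. Ebp holds 2 CCAAT and 1 GGGCGG, and Srebf2 holds 1 CCAAT and 4 GGGCGG. Of the 29 genes 24 have an entry in the table, with 32 starts. TCACNCCAC was found at 1 of these 32 (Hmgcs1) and in 1.05% of 32851 promoters of the same length. CCAAT was found at 21 of the 32, 65.6%, against 33.8% of all promoters, and GGGCGG at 25, 78.1%, against 32.7%. These matches are a description of letters, and no motif overlapped another in the sequences shown. Only exact matches were sought, so a sterol element with a differing letter is not counted. 

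Genes around the pathway, on lists drawn up by function, passed none of the mutant tests. The regional test called 11.1% of all probes higher and 13.2% lower in MEC, and the counts on these short lists are read beside that. Here 0 of 7 kept genes of lipoprotein uptake and efflux were higher in MEC and 4 were lower (Clu, Vldlr, Lrpap1 and Abcg4). Of 5 isoprenoid genes Coq2 and Dhdds were higher and none was lower. Of 7 genes of SREBP and LXR control Mylip and Erlin2 were higher and Mbtps1 and Erlin1 lower. Of 10 genes for sterol carriers and lysosomal release Osbpl1a and Nceh1 were higher and Lipa lower. Of 3 oxysterol genes Cyp46a1 and Cyp27a1 were lower, and of 5 fatty acid genes under SREBP1 Elovl6 was higher and Fasn lower. Cell markers also differed between the regions: among the kept oligodendrocyte markers Mag, Mobp and Cldn11 were higher in MEC and Mbp and Sox10 lower. The summed intensity of that list was 1405 to 1724 in MEC and 1046 to 1302 in LEC of Naglu-/- mice, and 1211 to 1821 in MEC and 1089 to 1224 in LEC of Naglu+/- mice. The part of oligodendrocyte RNA in the regional differences of cholesterol genes was not tested.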

How the data were processed

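RNA of laser-captured neurons was measured on 12 Agilent two-colour arrays. Per the file headers, each deposited scanner file gives the raw mean intensity and local background intensity of every spot in either dye, and intensities that the authors' software (Feature Extraction 9.5.1.1; the submitters' processing notes name 8.5.1.1) corrected for background and balanced between dyes. The authors' deposited value table holds log2 ratios per array. Its scale follows the scanner ratios, while its centring and direction are not stated.

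Computations used limma 3.58.1 under R 4.3.3. Background was corrected by normexp (offset 50) and dyes were balanced by loess. Repeat spots and then the 2 dye-swapped arrays were averaged, and 12993 of 41174 probes were kept. limma's lmFit and eBayes gave the mutant effects from 6 pair means, and the regional difference from quantile-normalised mean log2 intensity, with Benjamini-Hochberg adjustment and a threshold of 0.05 on the adjusted p. Simulated data of 12993 probes checked the fits: 56% of log2 changes of 0.5 and 87% of changes of 1 were recovered for the MEC effect, and 86% and 97% for the level. The simulated noise was normal and independent between probes, with 200 changed probes, and 9 and 10 unchanged probes were called. Such shares check the computation and do not give the power of the tests on the real arrays. RefSeq (GRCm38.p6) gave names to probes through their accession (23374), current symbol (6733) or former symbol (2919), with 8148 unnamed. Probe coordinates are those of mm8.

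The member genes, the companion lists and the assignment of files were chosen with earlier results of these data known. Per-pair values are given for the 4 member probes of smallest unadjusted p in each test. They are also given for Hmgcs1, Sqle, Dhcr7, Srebf2, Lrp1 and Soat1. Insig1, Npc1 and Abca1 were chosen too, but no probe of theirs was kept, so only their detection is given. The splits by brightness, the Cy3 channel alone, the members named under each alternative and the values of Idi1, Srebf1 and the remaining probes were chosen after their values were seen. Alternatives were the direction and assignment of arrays, pairs left out, background correction, scaling, filter, probe choice, replicate block and arrays as units. Some genes of the marker lists are counted with their list and not reported here by name.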

Additional observations from a re-analysis of the deposited data

How the results depend on the processing

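No member probe passed a mutant test under any alternative that was run, so the changes of sign below are between ratios that passed nothing. With replicate 2 turned as labelled the MEC effect was −0.12 for Ebp and 0.030 for Pmvk (A_51_P492410), the LEC effect 0.092 for Ebp, the mean over the regions −0.10 for Srebf2 (A_52_P473344), 0.031 for Sqle and −0.0037 for Lrp1, and the MEC minus LEC effect −0.22 for Ebp and 0.073 for Hsd17b7. With files and dyes as labelled the MEC effects of Ebp and Pmvk were again −0.12 and 0.030, the LEC effect was 0.18 for Soat1 (A_52_P642167) and −0.057 for Abcg1, the mean 0.026 for that Soat1 probe, −0.075 for A_51_P391754, 0.037 for Pmvk (A_51_P492408), −0.055 for Dhcr7, 0.12 for Sqle and −0.042 for Lrp1, and the MEC minus LEC effect −0.0067 for Ebp and 0.054 for Hsd17b7. Without replicate 2 of both regions the mean was −0.031 for Srebf2 and 0.010 for Sqle. The mean of Sqle was 0.064 on processed signals and 0.058 in the authors' table, and that of Dhcr7 −0.0061 with no background subtraction and −0.0083 in the authors' table. Leaving out 1 pair at a time, the mean ran between −0.020 and 0.15 for Hmgcs1 (MEC effect −0.0050 to 0.33), −0.023 and 0.13 for Srebf2, −0.10 and 0.085 for Dhcr7, −0.10 and 0.078 for Sqle and −0.028 and 0.14 for Soat1 (A_51_P391754), and 0 to 1 of all probes passed in MEC and in the mean, the 1 without LEC replicate 2. With the 12 arrays as units 6 probes of all passed in MEC, 1 in LEC and 3 in the mean, none a member. The cause was not tested.

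Between the regions, median scaling gave 5012 calls and 11 among the members, leaving out 1 pair 1962 to 2893 and 4 to 6, and leaving out replicate 2 of both regions 891 and 3, with fewer samples. Of all calls 45.8% were higher in MEC, and 40.6% with median scaling. Sqle's difference was −0.014 with median scaling, −0.10 in Cy3 alone, −0.046 without replicate 2 of both regions and −0.016 to 0.10 with 1 pair left out, and Lrp1's −0.0087 on processed signals and −0.013 to 0.021 with 1 pair left out. On processed signals Srebf2 (adjusted p = 0.0629 in limma) and Pmvk missed the threshold, and with no filter on dim probes Dhcr7 and Pmvk did.

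Deviations of same-numbered MEC and LEC pairs had correlations of −0.18, −0.0041 and −0.35 for ratios, and those of differently numbered pairs ran from −0.37 to 0.43. With 3 pairs per region and the direction of replicate 2 not settled, these values cannot show whether the numbers pair mice. The replicate block gave 0 calls in every mutant test and 6 member calls of 2763 in the level test, Pmvk being lost. A slide held 1 array each, so a slide block was not run. Signal over background in Cy5 limits what can be read for the member probes that were not kept.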
